A study of Homo sapiens with 8 samples.

Results

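The glutathione transferases, the glutathione peroxidases and the enzymes that make, reduce and cleave glutathione were followed in A549 cells, an established line from a human lung carcinoma. The group was chosen by name. It took every protein-coding gene whose symbol begins with GSTA, GSTM, GSTP, GSTT, GSTO, GSTK, GSTZ, MGST or GPX, together with GSS, GSR, GGT1, GGT5, GGT7, GGCT and OPLAH. The rule gave 36 genes, of which 34 had a probe with a matching accession among the 19046 genes compared. GSTA1 and GGT1 had no such probe and were not analysed here.

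Glutathione is a small cysteine-containing peptide that keeps the inside of the cell reduced. The peroxidases use it to reduce hydrogen peroxide and lipid peroxides, the transferases join it to electrophiles and drugs so that these can be exported, and glutathione reductase returns the oxidized form with NADPH. In the γ-glutamyl cycle, glutathione is cleaved outside the cell and its amino acids are taken up and used again. A549 cells carry a KEAP1 mutation and are known for constant activity of NRF2, the factor that turns on many of these genes.

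Cells were exposed either to EEDS, the ethanol extract of *D. sophia* seeds, or to helveticoside, a cardiac glycoside of this plant that inhibits the sodium pump. The EEDS series held a control and doses of 1.25, 5 and 20 μg/mL, and the helveticoside series a control and doses of 3.75, 15 and 60 nM. Both agents were applied to the same line with no genetic change, and EEDS was stocked in DMSO. The labels and the methods name different exposure times. RNA of 3 cultures was pooled on each single-dye Agilent array, with 1 array per dose and 8 arrays in all, so a dose has no replicate and carries no p-value of its own. Each series had its own control, so the agent cannot be told apart from the series.

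The median signal of an array was 182 to 214 in the EEDS series and 223 to 278 in the helveticoside series, and no probe spot was saturated. The scanner software called 63.3 to 64.9% of probes well above background in the EEDS series and 54.5 to 59.5% in the helveticoside series. All 5 epithelial markers (KRT8, KRT18, KRT19, CDH1 and EPCAM) and all 5 detoxification genes known for A549 were well above background on every array. Of 11 markers of leukocytes, endothelium and fibroblasts, 6 were on no array above this limit and 4 (PTPRC, CD14, CDH5 and COL1A1) were above it on every array. The summed linear signal of these 11 markers ran from 1215 to 3936 over the EEDS arrays and from 1409 to 4327 over the helveticoside arrays. On the controls this sum was mostly CD14, with log2 signals of 11.46 (EEDS) and 11.29 (helveticoside). The next brightest marker, COL1A1, had 8.35 and 7.89. CD14 had log2 ratios of -1.57 and -2.28 to the control at the top doses of EEDS and helveticoside, and COL1A1 0.80 and 0.71. At the top doses all 5 detoxification genes were lower in both series. Of the 5 epithelial markers, 4 were lower with EEDS and 5 with helveticoside, with ratios from -2.70 to 0.05 and from -2.71 to -0.26. Ratios were -2.70 and -2.71 for CDH1, -1.90 and -1.72 for KRT19, and -1.13 and -1.78 for AKR1B10. The part of these markers in the results was not tested. Between the 2 controls, the SD of the log2 difference over genes was 0.65, and 0.48 over the 11498 genes whose probe passed that limit on all 8 arrays.

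Many glutathione genes are known to be switched on through the antioxidant response element, which NRF2 binds together with small MAF proteins. Its core, TGACNNNGC, was searched on both strands of RefSeq promoter windows (GRCh38.p14) that run from 250 bases before to 50 bases after the gene start. It was present in 13.3% of all 35116 windows and in 8 of the 36 windows that the table holds for 28 of the genes, namely those of GGT1, GPX2, GSTA4, GSTM1, GSTM5, GSTO1, GSTP1 and MGST1. The AP-1 letters TGANTCA were present in 7.71% of all windows and in 1 of these 36, that of GSTP1, where they overlap the core. The 3 sequences below are the 150 bases directly before the start of GPX2 (chr14:64942746-64942895, minus strand), GSTA4 (chr6:52995285-52995434, minus strand) and GSTP1 (chr11:67583662-67583811, plus strand). They are shown because GPX2 had a trend that fell in both series, and with helveticoside only GSTA4 had one that fell and GSTP1 one that rose. Each holds a match, which is marked in capitals. GSTO1, which fell with EEDS, has matches that begin 226 and 161 bases before its start, outside such a stretch. GSR and GPX3, whose trends passed in both series, are not among the genes with a match. Whether the letters go with the trends was not tested.
GPX2: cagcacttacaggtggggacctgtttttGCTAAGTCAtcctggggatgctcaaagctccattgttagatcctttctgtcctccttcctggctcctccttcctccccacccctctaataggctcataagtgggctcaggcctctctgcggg
GSTA4: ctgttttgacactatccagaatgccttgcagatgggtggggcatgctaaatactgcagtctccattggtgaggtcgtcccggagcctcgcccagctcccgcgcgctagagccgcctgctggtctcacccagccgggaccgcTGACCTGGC
GSTP1: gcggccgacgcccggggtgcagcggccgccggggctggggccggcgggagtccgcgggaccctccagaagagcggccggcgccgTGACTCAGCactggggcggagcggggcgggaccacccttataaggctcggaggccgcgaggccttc
The match of GPX2 begins 122 bases before the start and reads on the opposite strand, that of GSTP1 begins 66 bases and that of GSTA4 9 bases before the start. A match of these letters is a description of the sequence, not of binding.

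Of the 34 genes, 23 were well above background on all 8 arrays. A further 5 passed on some arrays (GSTM2 on 6, GSTM4 on 5, GSTA2 on 4, GPX6 and GSTO2 on 1 each). The other 6 (GPX7, GSTA3, GSTA5, GSTT1, GSTT2B and GSTT4) passed on none. Values are log2 normalized signals, and each probe was compared only with itself, because probes differ in how strongly they bind.

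At the top doses, more of these genes lay below their control than above it. In RNA from whole cultures, fewer cells with a transcript and less of it per cell cannot be told apart. The median log2 ratio of the 34 genes to the control was -0.02, -0.15 and -0.35 at 1.25, 5 and 20 μg/mL EEDS, and 0.02, -0.13 and -0.40 at 3.75, 15 and 60 nM helveticoside. Over all genes, the median stayed between -0.04 and 0.02. Quantile normalization gives all arrays 1 distribution of signals, so it holds this median near 0. With scaling by the 75th percentile, the median at 20 μg/mL EEDS was -0.39 for the 34 genes and -0.36 for all genes, so the difference with EEDS depends on the normalization, and at 60 nM helveticoside it was -0.34 and -0.18. Among the 23 genes above background throughout, 15 were lower and 8 higher at 20 μg/mL EEDS, and 16 were lower and 7 higher at 60 nM helveticoside. Of all genes above background throughout, 50.5% and 48.7% were lower at these doses, shares that the quantile normalization also draws toward an even split.

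Counts over 2-fold grew with the dose, in the lower direction. The counts use the ratio as measured, also where only a bound holds. At 1.25 μg/mL EEDS, the ratio of GPX6 was over 2-fold higher (4.22% of all genes were) and GSTO2 and OPLAH were over 2-fold lower (3.66% of all genes). At 5 μg/mL, 0 of the 34 genes were higher (7.33% of all) and 5 were lower (8.47% of all), namely GGT5, GPX2, GSTA4, GSTO2 and OPLAH. At 20 μg/mL, GPX7 was higher (13.3% of all) and 8 genes were lower (14.5% of all), namely GGCT, GPX2, GPX8, GSR, GSTA4, GSTO2, GSTT2B and OPLAH.

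In the helveticoside series, 0 of the 34 genes were over 2-fold higher at 3.75 nM (3.38% of all genes were), and GSTT4 was lower (4.31% of all). At 15 nM, 0 were higher (7.08% of all) and GPX2, GSTA4, GSTT2B and OPLAH were lower (8.06% of all). At 60 nM, GPX3 was higher (10.8% of all) and 8 genes were lower (12.8% of all), namely GGCT, GPX2, GPX8, GSR, GSTA3, GSTA4, GSTM4 and OPLAH. In these counts GPX7, GSTA3, GSTT2B and GSTT4 rest on probes that were never called well above background. For GPX6 at 1.25 μg/mL EEDS and GSTM4 at 60 nM helveticoside only 1 of the 2 arrays compared was well above background, and their bounds, at least 1.72-fold higher and at least 1.06-fold lower, do not reach 2-fold.

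Over the 23 genes above background throughout, the same 6 genes (GGCT, GPX2, GPX8, GSR, GSTA4 and OPLAH) were over 2-fold lower at both top doses. Of all such genes, 16.2% were over 2-fold lower at 20 μg/mL EEDS and 13.3% at 60 nM helveticoside. In the other direction, 0 of the 23 were over 2-fold higher with EEDS, where 14.3% of all were, and only GPX3 was with helveticoside, where 10.9% of all were. These counts use the brighter probe. The other probe of GPX8 was over 2-fold lower at neither top dose (log2 ratios -0.51 and -0.31). The other probe of GGT7 was over 2-fold higher with EEDS (log2 ratio 1.22), and the other probe of GPX3 was not with helveticoside (0.59).

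**Figure D1:**
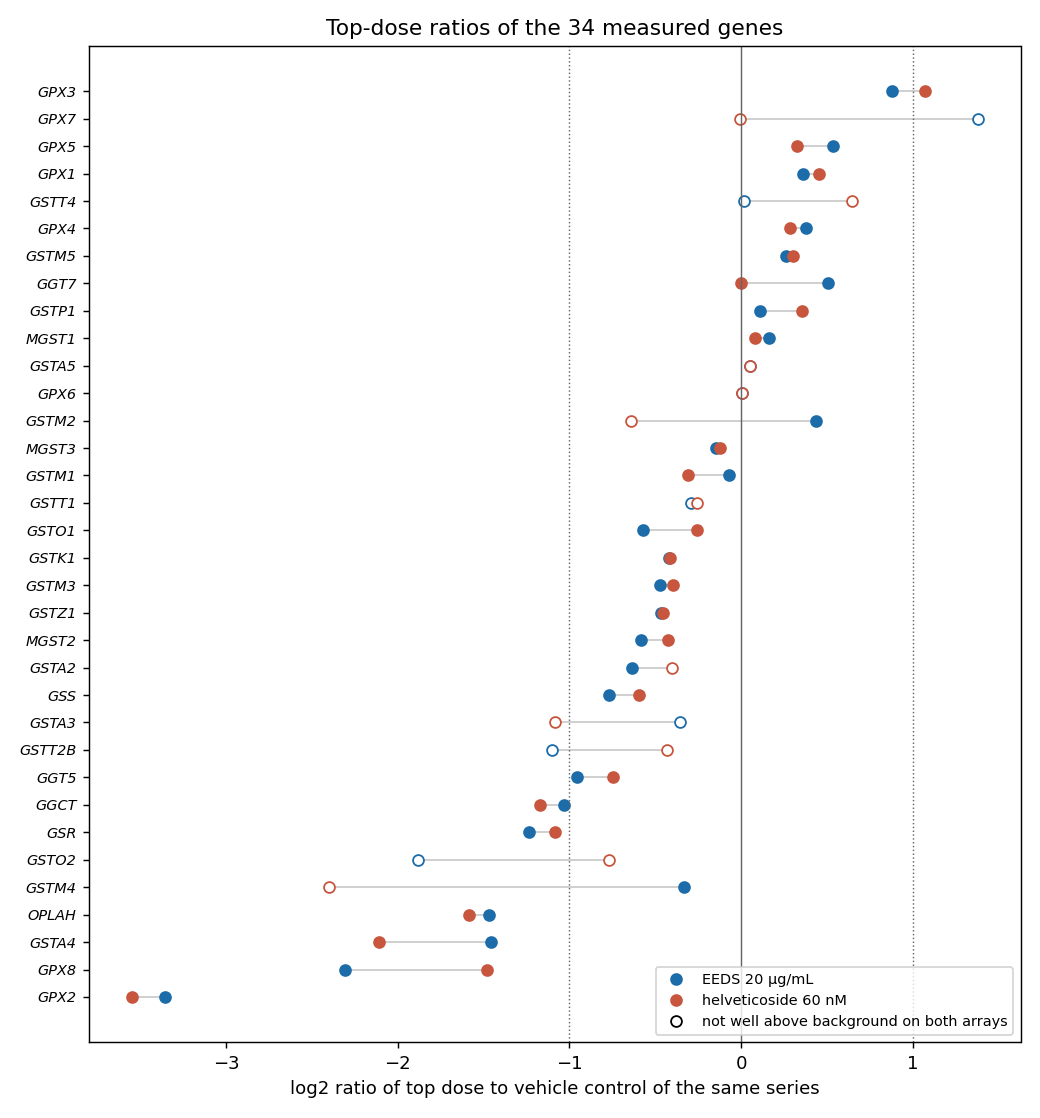
Log2 ratio of the top dose to the control of its series (horizontal axis) for the 34 measured genes, ordered by the mean of both ratios, with EEDS 20 μg/mL in blue and helveticoside 60 nM in red. Open points were not well above background on both arrays, dotted lines mark 2-fold, and GPX2 at the bottom had ratios of -3.36 and -3.55.

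The dose trend was tested as a slope per dose step, with the control as step 0 and the doses as steps 1 to 3, in 1 limma fit over the 8 arrays. In the EEDS series, GPX3 and GPX7 rose (7.27% of all genes did) and GPX2, GSR and GSTO1 fell (7.85% of all). The probe of GPX7 was well above background on no array. In the helveticoside series, GPX3 and GSTP1 rose (5.48% of all) and GPX2, GSR and GSTA4 fell (5.80% of all). These shares of the 34 genes are near those of all genes. At an unadjusted p under 0.05, 3 of the 34 rose and 12 fell with EEDS, where 16.4% and 17.0% of all genes did, and 3 rose and 9 fell with helveticoside, where 14.6% and 15.2% did. When the fit held only the 4 arrays of a series, or left out the controls, the lowest doses or the middle doses, 0 genes of the whole array passed, so each trend call needs all 8 arrays.

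Among the glutathione peroxidases, 6 of the 8 measured genes were above background throughout and they did not move together. GPX2 had the largest change among the 34 genes. It codes for the gastrointestinal peroxidase, a selenoprotein and a known NRF2 target. Its log2 signal was 14.72, 14.54, 11.95 and 11.36 from the control to the top dose of EEDS and 14.25, 14.21, 12.23 and 10.70 from the control to the top dose of helveticoside. In both series the control and the lowest dose lay close together and the middle and top doses far below them.

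GPX2 was 6.78-fold lower at 5 μg/mL and 10.2-fold lower at 20 μg/mL EEDS, and 4.03-fold and 11.7-fold lower at 15 and 60 nM helveticoside. The step from the lowest to the middle dose took -2.59 with EEDS and -1.98 with helveticoside on the log2 scale, and the last step -0.60 and -1.54. The slope was -1.27 per dose step (SE 0.26, adjusted p = 0.0346) with EEDS and -1.26 (SE 0.26, adjusted p = 0.0411) with helveticoside. It passed in both series under all 9 alternatives that kept the 8 arrays.

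GPX3, the peroxidase secreted into plasma, went the other way. Its log2 signal was 7.49, 7.82, 8.11 and 8.37 in the EEDS series and 6.69, 7.21, 7.54 and 7.76 in the helveticoside series. These values are of its brighter probe, which was higher at each dose than at the dose before, in both series. On that probe GPX3 was 1.84-fold higher at 20 μg/mL EEDS and 2.10-fold higher at 60 nM helveticoside, with slopes of 0.29 (SE 0.06, adjusted p = 0.0330) and 0.35 (SE 0.06, adjusted p = 0.0276). Its dimmer probe, well above background on 6 arrays, read 5.31, 5.14, 5.57 and 5.89 in the helveticoside series. That was lower at 3.75 nM than on the control, and the log2 ratios of this probe at the top doses of EEDS and helveticoside were 0.83 and 0.59.

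The 2 controls of GPX3 differed by -0.80 on the log2 scale (helveticoside minus EEDS). Set against the EEDS control, the log2 ratio at 60 nM helveticoside was 0.27 in place of 1.07. The trend passed in 5 of the 9 alternatives with 8 arrays for each agent.

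GPX8, a peroxidase of the endoplasmic reticulum, was low at the top doses only. Its log2 signal was 11.61, 11.30, 11.29 and 9.30 in the EEDS series and 11.42, 10.97, 11.37 and 9.94 in the helveticoside series. The first 3 arrays of each series lay within 0.5 of each other and the top dose more than 1 below them. That was 4.96-fold and 2.79-fold lower than the control, and the slopes did not pass (adjusted p = 0.111 and 0.344). Its other probe gave log2 ratios of -0.51 and -0.31 at the top doses.

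The more general peroxidases GPX1 and GPX4 were slightly higher. GPX1, the main peroxidase of the cytosol, had log2 ratios of 0.36 at 20 μg/mL EEDS and 0.45 at 60 nM helveticoside, and GPX4, which reduces lipid peroxides in membranes, had 0.37 and 0.28. GPX5 had 0.01, 0.37 and 0.53 from the lowest to the top dose of EEDS. With helveticoside it had 0.92, 0.998 and 0.33, so its top dose was the least changed. None of these 3 passed the trend test. GPX6 was above background on 1 array, where it was at least 1.72-fold higher than the control at 1.25 μg/mL EEDS, and its other probe was not above background there but on another single array, at 15 nM helveticoside. GPX7 went from 2.99 on the EEDS control to 4.37 at 20 μg/mL (slope 0.47, SE 0.09, adjusted p = 0.0299), a change wholly below the level called well above background.

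**Figure D2:**
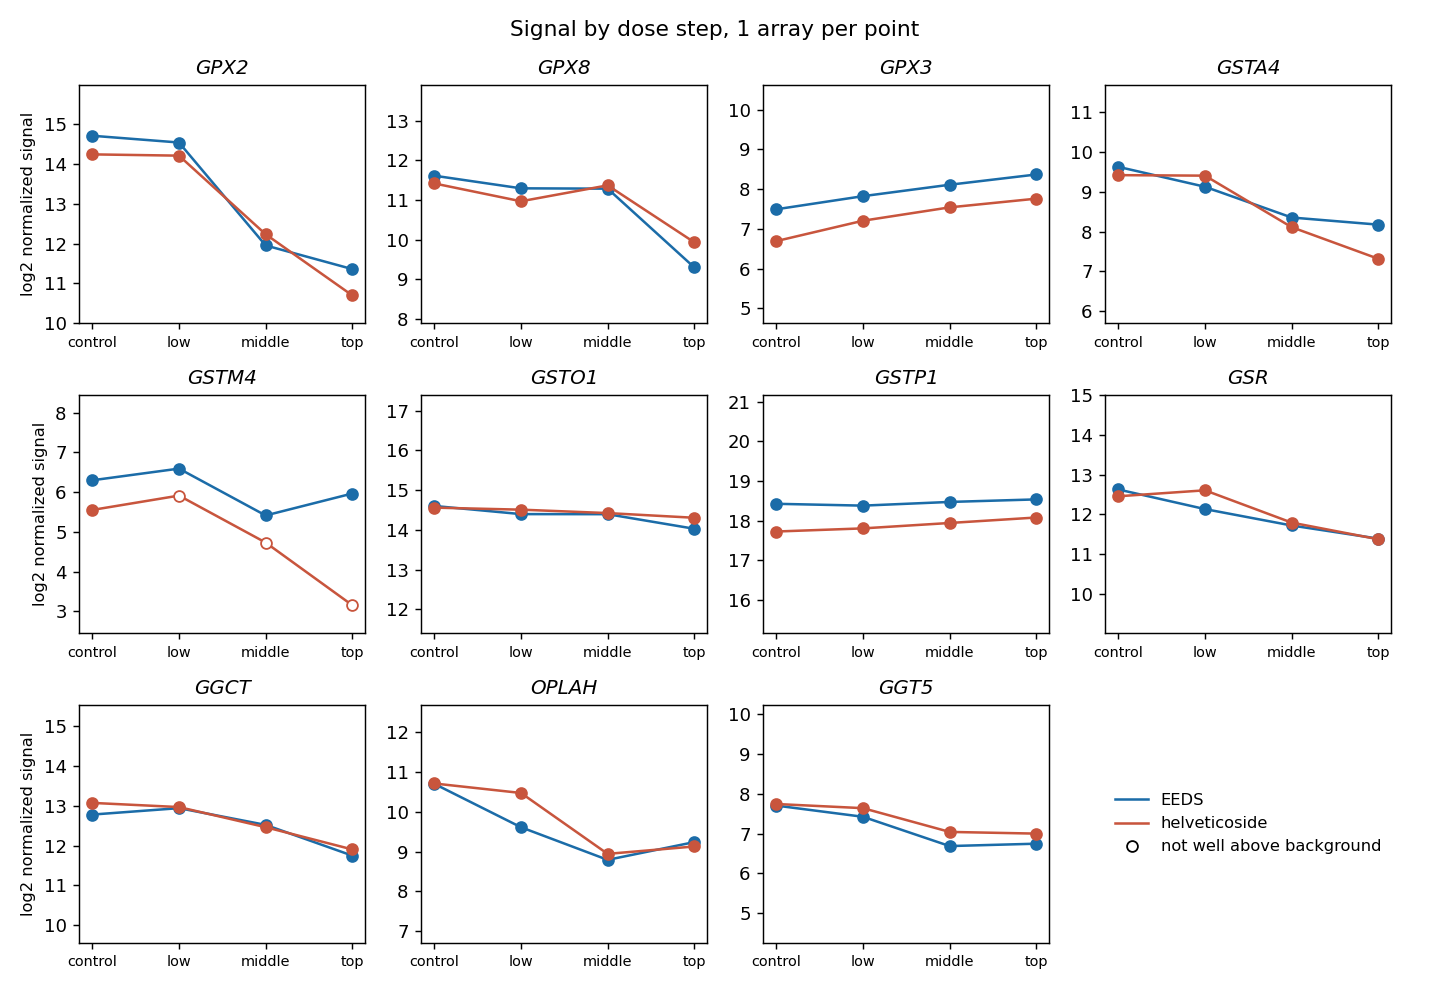
Log2 normalized signal (vertical axis, each panel spanning 6 units) against dose step (horizontal axis) for the 11 genes described on all arrays, with EEDS in blue and helveticoside in red and 1 array per point. Open points were not well above background. GPX2 fell between the lowest and the middle dose, GPX8 was low at the top dose only, and GPX3 rose step by step.

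The transferases join glutathione to electrophiles. GSTA4, the alpha-class enzyme that handles 4-hydroxynonenal from lipid peroxidation, had the largest change of those above background throughout. Its log2 signal was 9.63, 9.13, 8.35 and 8.17 in the EEDS series and 9.42, 9.41, 8.11 and 7.31 in the helveticoside series. The middle and top doses lay below the control and the lowest dose in both. GSTA4 was 2.74-fold lower at 20 μg/mL EEDS and 4.31-fold lower at 60 nM helveticoside.

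The slope of GSTA4 was -0.76 with helveticoside (SE 0.13, adjusted p = 0.0271). With EEDS it was -0.51 (SE 0.13, adjusted p = 0.05005), just over the threshold, and it passed in 8 of the 9 alternatives with 8 arrays. A dimmer probe of GSTA4 had log2 ratios of -1.94 and -3.23 at the top doses and was not well above background at 60 nM. The other alpha-class genes gave little signal, with GSTA2 above background on 4 arrays and GSTA3 and GSTA5 on none.

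GSTP1, the pi-class enzyme that is abundant in many tumours, changed by far less. Its log2 signal was 18.42, 18.38, 18.47 and 18.54 in the EEDS series and 17.73, 17.80, 17.94 and 18.08 in the helveticoside series. It was higher at each dose of helveticoside than at the one before, whereas the EEDS arrays lay within 0.2 of each other. The slope was 0.12 with helveticoside (SE 0.02, adjusted p = 0.0368) and 0.04 with EEDS (SE 0.02, adjusted p = 0.280). The helveticoside trend passed in 4 of the 9 alternatives with 8 arrays.

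All the helveticoside arrays of GSTP1 lay below all the EEDS arrays. Set against the EEDS control, the log2 ratio at 60 nM was -0.34 in place of 0.35. Scaling by the 75th percentile in place of quantiles, which moved the median of all genes to -0.36 at 20 μg/mL EEDS and -0.18 at 60 nM helveticoside, turned the EEDS slope to -0.06.

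GSTO1, an omega-class enzyme with thioltransferase activity, had log2 signals of 14.60, 14.40, 14.40 and 14.03 in the EEDS series and 14.56, 14.51, 14.42 and 14.31 in the helveticoside series. The top dose was the lowest array of each series. The slope was -0.17 with EEDS (SE 0.04, adjusted p = 0.0484) and -0.09 with helveticoside (SE 0.04, adjusted p = 0.247), the latter turning to 0.02 with 75th percentile scaling. The EEDS trend passed in 4 of the 9 alternatives with 8 arrays. GSTO2 was well above background on the EEDS control only and was at least 2.14-, 2.13- and 2.07-fold lower at 1.25, 5 and 20 μg/mL EEDS.

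The mu-class genes lie side by side in the genome and are alike in sequence, so a probe may take signal from more than 1 of them and their values are uncertain. GSTM4 had log2 signals of 6.30, 6.59, 5.41 and 5.97 in the EEDS series and 5.55, 5.91, 4.73 and 3.15 in the helveticoside series. It was well above background on all EEDS arrays but only on the control of the helveticoside series. Only bounds hold there, of at least 1.26-fold lower at 15 nM and at least 1.06-fold lower at 60 nM, and neither slope passed (adjusted p = 0.648 with EEDS and 0.0884 with helveticoside).

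GSTM2 was higher on the EEDS arrays, with log2 ratios of 0.56, 0.31 and 0.43 from the lowest to the top dose, and was at least 1.34-fold lower at 60 nM helveticoside. GSTM3 had log2 ratios of -0.47 and -0.40 at the top doses and GSTM1 -0.07 and -0.31. GSTM5 was slightly higher, with 0.26 and 0.30, but its controls differed by 1.03, more than any of its doses from its own control.

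Of the remaining transferases, those above background throughout stayed within 2-fold of their control at every dose. The kappa-class GSTK1 of mitochondria and peroxisomes had log2 ratios of -0.42 in both series at the top dose, and the zeta-class GSTZ1, which acts in tyrosine breakdown, -0.47 and -0.46. Of the membrane-bound microsomal enzymes, MGST1 had 0.16 and 0.08, MGST2 -0.58 and -0.43, and MGST3 -0.15 and -0.12. The sign of MGST3 turned in the helveticoside series with 75th percentile scaling, to 0.21. The theta-class genes GSTT1, GSTT2B and GSTT4 were on no array above background.

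GSR, the reductase that returns oxidized glutathione, fell in both series. Its log2 signal was 12.62, 12.13, 11.72 and 11.39 in the EEDS series and 12.45, 12.60, 11.79 and 11.37 in the helveticoside series. The EEDS arrays were lower at every step, and the helveticoside arrays from 15 nM on. GSR was 2.36-fold lower at 20 μg/mL EEDS and 2.12-fold lower at 60 nM helveticoside. The slopes were -0.41 (SE 0.09, adjusted p = 0.0373) and -0.41 (SE 0.09, adjusted p = 0.0454), and they passed in 9 and 7 of the 9 alternatives with 8 arrays. GSS, which adds glycine in the last step of glutathione synthesis, had log2 ratios of -0.77 and -0.60 at the top doses and did not pass.

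GGCT and OPLAH follow each other in the γ-glutamyl cycle, as GGCT releases 5-oxoproline and OPLAH turns it into glutamate. The log2 signal of GGCT was 12.78, 12.94, 12.52 and 11.75 in the EEDS series and 13.08, 12.97, 12.46 and 11.90 in the helveticoside series, with the top dose lowest in each. It was 2.05-fold and 2.25-fold lower at the top doses (adjusted p = 0.0816 and 0.0699 for the trends).

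The log2 signal of OPLAH was 10.70, 9.61, 8.79 and 9.24 in the EEDS series and 10.71, 10.48, 8.94 and 9.13 in the helveticoside series. Its lowest array was the middle dose in both series. It was 3.77-fold lower at 5 μg/mL and 2.76-fold lower at 20 μg/mL EEDS, and 3.42-fold and 3.002-fold lower at 15 and 60 nM helveticoside. Neither slope passed (adjusted p = 0.148 and 0.114). Set against 1.25 μg/mL in place of the control, the log2 ratio at 20 μg/mL EEDS was -0.37 in place of -1.47.

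The γ-glutamyl transferase family cleaves glutathione at the cell surface. GGT5 had log2 signals of 7.70, 7.42, 6.68 and 6.74 in the EEDS series and 7.74, 7.64, 7.04 and 7.00 in the helveticoside series. In each series the middle and top doses lay close together and below the control and the lowest dose. It was 2.03-fold lower at 5 μg/mL and 1.94-fold lower at 20 μg/mL EEDS (adjusted p = 0.0576 for the trend) and 1.68-fold lower at 60 nM helveticoside (adjusted p = 0.115). GGT7 was the exception in sign, with log2 ratios of 0.50 at 20 μg/mL EEDS and 0.00 at 60 nM helveticoside, and of 1.22 and 0.60 on its other probe.

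A pair of probes that passed on at least 6 arrays was at hand for 7 of the genes. Both probes of GPX1, GPX3, GPX8, GSTA4, GSTK1 and MGST3 had the same sign at both top doses. They differed most for GPX8, where 1 probe put the gene over 2-fold lower and the other did not. The 2-fold call also differed between the probes of GGT7 with EEDS and of GPX3 with helveticoside.

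**Figure D3:**
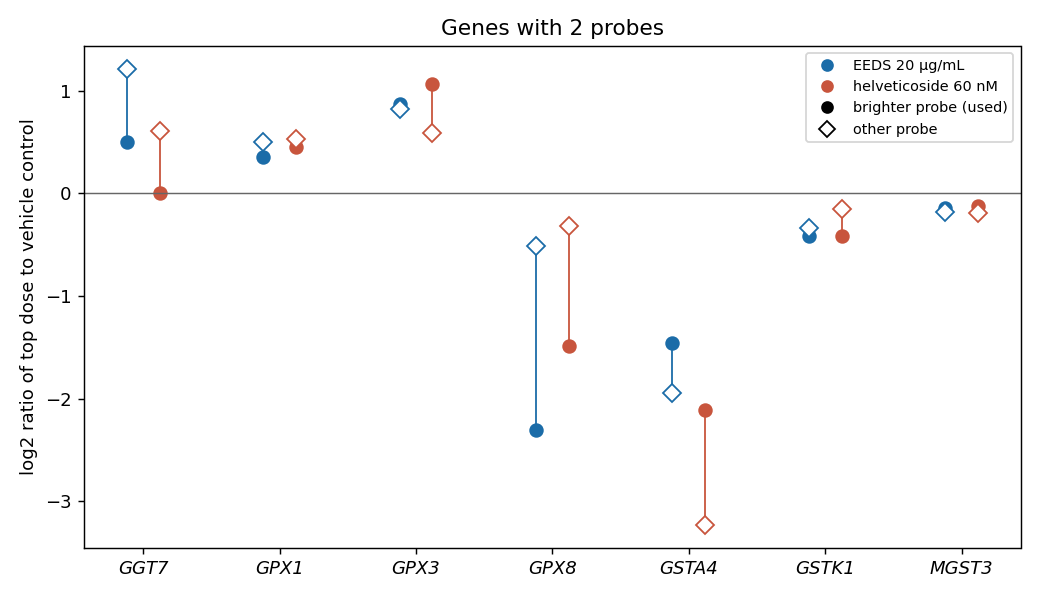
Log2 ratio of the top dose to its control (vertical axis) for the 7 genes with 2 probes above background on at least 6 arrays, with EEDS in blue and helveticoside in red. Filled circles are the brighter probe, which was used, and open diamonds the other, as in GPX8 with -2.31 and -0.51 for EEDS.

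The doses of the extract and of the glycoside are in different units, so they were set side by side by dose step only. The paper gives a median growth-inhibiting concentration for each agent. The middle dose lies above it for EEDS and below it for helveticoside, and both top doses lie above it. The steps are therefore not matched in growth inhibition. At the lowest dose, 17 of the 23 genes above background throughout had the same sign in both series, at the middle dose 23, and at the top dose 22, with GGT7 the exception. The helveticoside ratio of GGT7 was -0.0002, which is no change, and its other probe was higher in both series. Of all genes above background throughout, 67.2%, 83.1% and 86.9% had the same sign at these steps. The series share no control array.

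The difference of the slopes, helveticoside minus EEDS, passed for 0 of the 34 genes and for 0% of all genes in the limma fit. At an unadjusted p under 0.05, 525 genes (2.76%) and 1 of the 34 (GPX7, never well above background) passed. The 95% interval of the difference ran from -0.93 to 0.93 for GPX2, from -0.31 to 0.32 for GSR, from -0.69 to 0.20 for GSTA4 and from -0.15 to 0.27 for GPX3. For GSTP1 it ran from -0.01 to 0.16.

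Other genes of the pathway were described from lists of the steps around these enzymes. Their counts are to be read against the shares of all genes, of which 7.27% rose and 7.85% fell with EEDS and 5.48% rose and 5.80% fell with helveticoside. At the top doses of EEDS and helveticoside, 14.5% and 12.8% of all genes were over 2-fold lower and 13.3% and 10.8% over 2-fold higher. Of 22 measured genes of glutathione synthesis and thiol supply, 4 fell and 0 rose in each series, and 6 were over 2-fold lower with 20 μg/mL EEDS and 7 with 60 nM helveticoside. Over 2-fold higher were 0 with EEDS and 2 with helveticoside, CBS and CHAC1. At an unadjusted p under 0.05 in the limma fit, 9 fell with EEDS and 10 with helveticoside, where 17.0% and 15.2% of all genes did, and 0 rose, where 16.4% and 14.6% did. The median log2 ratio was -0.66 and -0.52. GCLC, the catalytic subunit of the rate-limiting enzyme of glutathione synthesis, fell in both series, with log2 ratios of -1.47 and -1.55 at the top doses (adjusted p = 0.0144 and 0.0175). GCLM, its modifier subunit, fell with EEDS (log2 ratio -0.99) and had -0.52 with helveticoside without passing.

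PGD, which makes NADPH in the pentose phosphate pathway, fell in both series (log2 ratios -1.89 and -2.21), as did SHMT1, a source of glycine and one-carbon units (-1.89 and -1.50). LAP3, a peptidase, fell with helveticoside (-1.07) and had -0.92 with EEDS without passing. IDH1, the NADPH-making isocitrate dehydrogenase of the cytosol, had -3.42 and -2.97, and MAT2A, which makes S-adenosylmethionine, -1.61 in both series, without a trend that passed. CBS, the first enzyme on the way from homocysteine to cysteine, had log2 ratios of 2.26 and 0.65 at 5 and 20 μg/mL EEDS and 2.25 and 1.31 at 15 and 60 nM helveticoside. CHAC1, which breaks glutathione down, had 3.57 at 5 μg/mL but -0.21 at 20 μg/mL EEDS, and 3.82 and 2.27 at 15 and 60 nM helveticoside. Both were chosen after their values were seen.

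Of 19 measured genes of the thioredoxin and peroxiredoxin system, 1 rose and 1 fell in each series, and the median log2 ratio was 0.12 and -0.05 at the top doses. TXNIP, the thioredoxin-binding protein, rose in both. Its log2 ratio was 3.33 at 20 μg/mL EEDS, and it was at least 11.2-fold higher at 60 nM helveticoside, where its control was not well above background. GLRX, a glutaredoxin, fell with EEDS (-2.63, and -1.52 with helveticoside), and CAT, the peroxisomal catalase, fell with helveticoside (-2.60, and -1.33 with EEDS).

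Several peroxidases are selenoproteins, and of 10 genes of selenoprotein synthesis 1 fell with EEDS and 2 with helveticoside. SEPHS2, which makes the selenium donor, fell in both series (-1.31 and -1.03). SECISBP2, which binds the selenocysteine insertion element, fell with helveticoside, where it was at least 2.93-fold lower at 60 nM, and had -1.05 with EEDS. Over 2-fold lower were 4 genes with EEDS and 2 with helveticoside, and the list's median was -0.55 and -0.37.

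Of 20 other glutathione-using genes, 1 rose and 2 fell in each series, and 2 were over 2-fold higher and 4 lower with EEDS and 3 and 5 with helveticoside (medians -0.33 and -0.19). CLIC1, an intracellular chloride channel of the transferase fold, rose in both (1.12 and 0.94). GGTLC1 and GGTLC2, which hold the light chain of γ-glutamyl transferase, fell in both (-1.52 and -1.38, and -1.34 and -1.24), but their probes may share signal with GGT1 and its copies. ETHE1, a sulfur dioxygenase of mitochondria, had -1.34 and -1.06 without passing, and GDAP1 had -1.31 with EEDS and was at least 4.55-fold lower with helveticoside.

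Of 9 transporters that export glutathione conjugates or related compounds, 0 passed with EEDS, and ABCG2 fell with helveticoside (-1.09, and -0.65 with EEDS). ABCC5 had -2.05 and -2.12 and ABCC6 -1.45 and -1.58 without passing. In all, 4 were over 2-fold lower with EEDS and 3 with helveticoside, and 0 were over 2-fold higher (medians -0.65 and -0.81). At an unadjusted p under 0.05 in the limma fit, 6 of the 9 fell and 0 rose in each series. Of all genes, 17.0% fell and 16.4% rose with EEDS at this limit, and 15.2% fell and 14.6% rose with helveticoside.

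**Figure D4:**
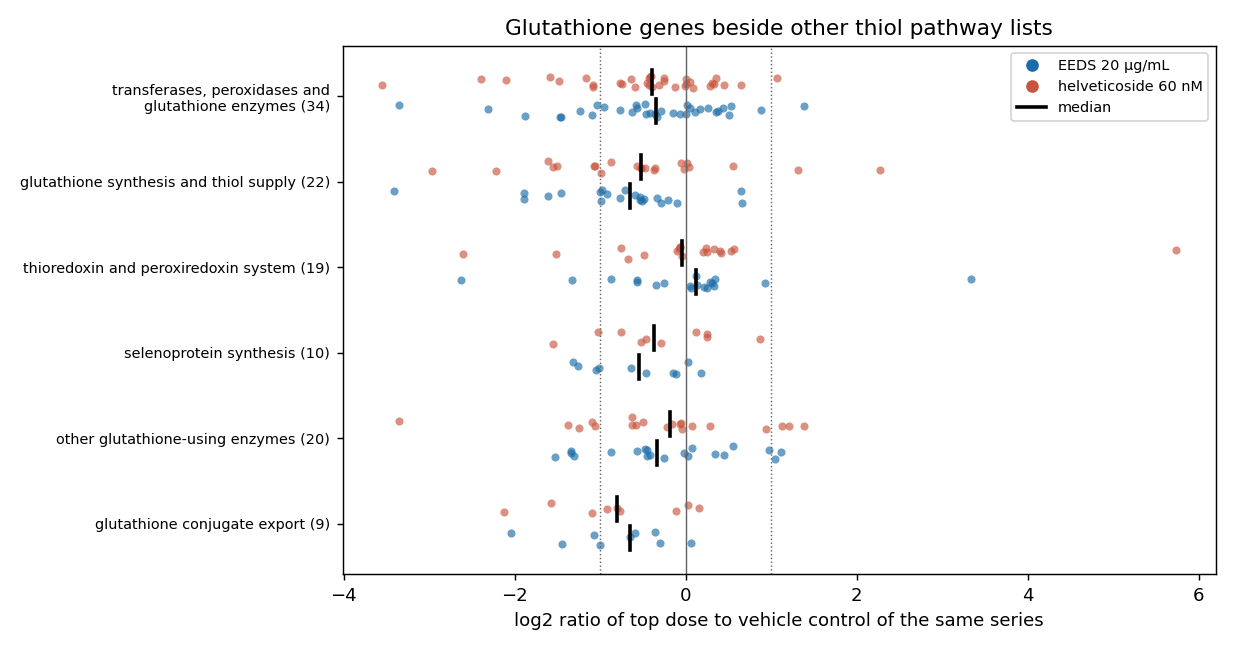
Log2 ratio of the top dose to its control (horizontal axis) for the 34 glutathione genes and for 5 lists of surrounding pathway genes (number of genes in brackets), with EEDS in blue, helveticoside in red, 1 point per gene and a black bar at the median. The 34 genes have medians of -0.35 and -0.40, the synthesis list -0.66 and -0.52, and the thioredoxin list 0.12 and -0.05.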

How the data were processed

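For each array, the authors deposited the intensity of every spot as given by Agilent Feature Extraction (version not given in the sources used here): the median signal, the local background and a background-subtracted processed signal. A table of intensity values processed by the authors was deposited as well, which from its values is quantile-normalized within each series (2427 values blank). Per the labels RNA of 3 cultures was pooled, the exposure is 48 h in the labels and 24 h in the paper, and the files name no slide or scan, so no batch within a series was examined.

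Control and outlier spots were left out (22 probes lost), and processed signals were averaged per probe, quantile-normalized over 8 arrays and put on the log2 scale. Through the accession, 24812 of 34105 probes were matched to RefSeq names of GRCh38.p14, the brightest probe stood for a gene, and 19046 of 19056 genes had a probe of at least 1.4 times its background on an array of each series. A bound of "at least" sets the bright array against the lowest signal well above background on the dim array.

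Slopes per dose step came from limma 3.58.1 in R 4.3.3, with robust and trended variances (statmod 1.5.0), separate intercepts and slopes for the series, 4 residual degrees of freedom and Benjamini-Hochberg adjustment over 19046 genes (threshold 0.05). The p-values measure only the scatter of these arrays about the trend lines. The fit was tested on simulated data, and figures and counts used Python 3.11.15, numpy 2.4.6, pandas 2.3.3 and matplotlib 3.10.9.

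Genes were described on all arrays where a probe was well above background in each series and was over 2-fold at a dose or passed the trend test. Pathway genes were named where they passed, or were over 2-fold the same way at both top doses. The members and lists were chosen with earlier results of these data known. Alternatives covered background, normalization, filter, probe, values, control and arrays in the fit.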

Additional observations from a re-analysis of the deposited data

How the results depend on the processing

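Precision is limited by 1 array per dose, and dim genes have only bounds. Of the values that answer a comparison, 161 were counted as the same as the main value and 68 as moved, the latter all small counts of genes. Values counted as the same could still differ in size. The median ratio ran from -0.47 to -0.20 at 20 μg/mL EEDS (main -0.35) and from -0.48 to -0.14 at 60 nM helveticoside (main -0.40). With 8 arrays, the count over 2-fold lower at 20 μg/mL ran from 6 to 11 (main 8). The median ratio changed sign around 0 at the lowest doses (-0.20 to 0.03 with EEDS, -0.07 to 0.17 with helveticoside) and was below 0 at the middle and top doses. Scaled to the 75th percentile, however, the median of all genes was also below 0 there: -0.21 and -0.36 at 5 and 20 μg/mL EEDS beside -0.22 and -0.39 for the 34 genes, and -0.12 and -0.18 at 15 and 60 nM helveticoside beside -0.15 and -0.34. The lower median of the 34 genes with EEDS thus nearly vanished relative to all genes under that scaling. Both medians take in genes that were not above background throughout. The scaling also moved genes in different directions: at 20 μg/mL EEDS GGCT went from -1.03 to -0.77 and the dimmer GGT5 from -0.96 to -1.46. The count of slope differences was 0 throughout, and the slopes of the 11 genes described on all arrays kept their sign except for the pair below. The cause of the changes was not tested. No paired analysis was possible because each dose had 1 array and the labels carry no replicate numbers.

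With the signal as scanned and with normexp, the genes over 2-fold higher were 0 at 1.25 and 20 μg/mL EEDS and 0 at 60 nM helveticoside. Those over 2-fold lower were 0, 3 and 5 at 1.25 and 5 μg/mL EEDS and 60 nM, and 0 at 3.75 nM. Rising trends were 0 for both agents. With 75th percentile scaling, 0 genes were higher at 60 nM, 1 rose and 6 fell with EEDS, 0 rose with helveticoside, and the slopes of GSTP1 with EEDS (-0.0565) and GSTO1 with helveticoside (0.0244) turned in sign. With quantile normalization within each series, 0 were higher at 60 nM and 6 fell with EEDS. With genes above background throughout, 0 were higher and 1 lower at 1.25 μg/mL, 0 higher at 20 μg/mL, 0 lower at 3.75 nM, 1 rose and 6 fell with EEDS and 5 fell with helveticoside. With the mean of all probes, 0 were lower at 3.75 nM, 1 was higher at 15 nM and 0 at 60 nM.

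With the deposited table, 1 was lower at 1.25 μg/mL, 0 higher at 20 μg/mL, 0, 2 and 5 lower at 3.75, 15 and 60 nM and 0 higher at 60 nM, while 0 rose and 9 fell with EEDS and 0 rose with helveticoside. Against the control of the other series, 3, 1 and 2 were higher at the EEDS doses and 1, 3 and 2 at the helveticoside doses, and 7 were lower at 15 nM. The log2 ratios of GSTM4, GSTM1, GSTZ1, GSTM5 and GGT7 at 20 μg/mL EEDS then changed sign, to 0.41, 0.41, 0.12, -0.77 and -0.09. Without trend and robust estimation, 1 rose with helveticoside. With the 4 arrays of a series alone, without the lowest dose, without the middle dose, and, chosen after seeing the data, without the vehicle controls, 0 rose and 0 fell with either agent. Against the lowest dose in place of the control, 4 were lower at 20 μg/mL EEDS, and the ratios of GPX4 and MGST1 at that dose (-0.02 and -0.27) and of GPX5 at 60 nM (-0.59) changed sign. Over all genes, the alternatives with 8 arrays called 2813 to 4600 genes with EEDS and 1657 to 2774 with helveticoside. Where more of the 34 genes fell with EEDS, more genes were called over the whole array too: 4600 with the deposited table, 3994 with 75th percentile scaling, 3346 with normalization within each series and 3600 of 11498 with genes above background throughout, beside 2879 in the reported fit.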
